A study of Cricetulus griseus with 24 samples.

Results

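The genes described are 43 components of the DNA replication machinery, taken by gene symbol from a table of 28037 genes counted by RNA-seq in Chinese hamster ovary (CHO) cells. All 43 symbols were in the table, and every one passed the filter on low counts in every comparison. They fall into 9 role groups: 7 genes of origin recognition and licensing, 6 of the MCM ring, 6 of helicase activation, 4 of polymerase alpha-primase, 5 of polymerases delta and epsilon, 6 of the sliding clamp and its loader, 3 of the single-strand binding complex, 2 of Okazaki fragment processing and 4 of nucleotide supply. The genes were chosen for their function and not by their measured values. Earlier results of these data were known when the choice was made.

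A replication origin is prepared before S phase, when the origin recognition complex, Cdc6 and Cdt1 place the MCM ring on DNA. Cdc45 and the GINS complex then turn that ring into the active helicase, polymerase alpha-primase lays down primers, and polymerases delta and epsilon extend them on the Pcna clamp. Many of these genes are E2F targets whose mRNA is made mainly around the start of S phase. The mRNA of such genes can therefore track how actively a culture is cycling, which was not tested here.

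The study compared A0, an antibody-producing line of CHO DG44, with A1, the progeny of A0 obtained by stepwise methotrexate amplification, at exponential and at stationary growth phase. CHO-S, which makes no antibody, served as a negative control and was collected at the same phases. The titles of the CHO-S samples carry the mark NDST, whose meaning is not given in the sources used here. A0 and A1 carry a plasmid pair, with the antibody heavy chain on one and the light chain and neomycin phosphotransferase on the other, and both had been selected in neomycin (G418), which was later removed. There were 4 cultures of A0 at each phase and 3 cultures of A1 and of CHO-S at each phase, 20 cultures in all. The 24 libraries came to 20 cultures because each exponential A0 culture had 2 libraries, which were summed. A0 and A1 are each 1 line, so the spread between cultures is that of flasks of the same line, and the p-values measure this spread. The growth medium of CHO-S is not given in the sources used here, and the parental lineages differ, so line, lineage and culture conditions cannot be told apart in comparisons with CHO-S.

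Counts on genes ranged from 1038026 to 14652646 per library. The lowest belonged to CHO-S stationary culture 1, in which the median gene differed from the other 2 cultures of its group by 0.60 on the log2 scale, and 32.8% of its reads were on no gene, against 11.9 to 18.4% in the other libraries. Where stationary CHO-S cultures enter, counts of calls are therefore shown with and without it. So are the phase changes in CHO-S of genes whose CHO-S levels are given by culture. Other values that use stationary CHO-S include it unless stated. The lowest count of a member in any culture was 6. Among the exponential A0 libraries, the second library of culture 1 differed most from its partner (chi-square per degree of freedom 26.8, against 2.74 to 5.98 in the other 3 cultures). Vim, a mesenchymal marker that CHO cells express, was at 728 to 1465 CPM over the 20 cultures, while Ptprc, Cd3e and Alb stayed under 1 CPM in every culture. Levels are given as CPM, read counts scaled to library size with TMM over all 20 cultures, and values in a sentence follow the order of the culture numbers. CPM is not divided by gene length and is compared only within a gene. A gene is said to have risen or fallen when edgeR's quasi-likelihood test gave a Benjamini-Hochberg adjusted p under 0.05 over all genes tested.

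At stationary phase, 39 of the 43 genes fell in A0, 36 fell in A1 and 33 fell in CHO-S, and 0 rose in any line. The share of all genes that fell was 20.1% in A0, 17.8% in A1 and 6.48% in CHO-S, the share that rose was 17.7%, 15.6% and 6.81%, and the share called in either direction was 37.7%, 33.4% and 13.3%. At an unadjusted p under 0.05, 0 genes rose in A0, 1 in A1 and 1 in CHO-S, and DESeq2 also called 0 higher in each line. The median log2 fold change of the 43 genes was -1.16 in A0, -0.51 in A1 and -1.05 in CHO-S, beside medians over all genes tested of 0.0013, 0.032 and 0.023. The median gene thus kept 44.9% of its exponential level in A0, 70.2% in A1 and 48.4% in CHO-S. A total of 32 genes fell in all 3 lines, or 36 without CHO-S stationary culture 1. The share of all genes that fell in all 3 lines was not counted. With all cultures, it cannot exceed the 6.48% that fell in CHO-S, taken over the genes tested there.

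Every exponential culture lay above every stationary culture for 39 genes in A0, 36 in A1 and 39 in CHO-S. Over all genes tested, such separation in that direction was seen for 19.1%, 23.8% and 21.6% of genes. Without the shallow CHO-S stationary culture 1, 42 genes fell in CHO-S and 1 rose, with a median of -1.03. Of all genes 47.7% were called in that fit, 24.7% lower and 23.1% higher. In CHO-S the count of calls also depended on the exponential cultures while that library was kept: without exponential culture 2 edgeR called 0 of the 43 genes (and 0 of all genes), although 34 of the 43 had an unadjusted p under 0.05 and DESeq2 called 34 with all cultures. Fewer cells in S phase and less replication mRNA per cell cannot be told apart in these bulk cultures.

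**Figure D1:**
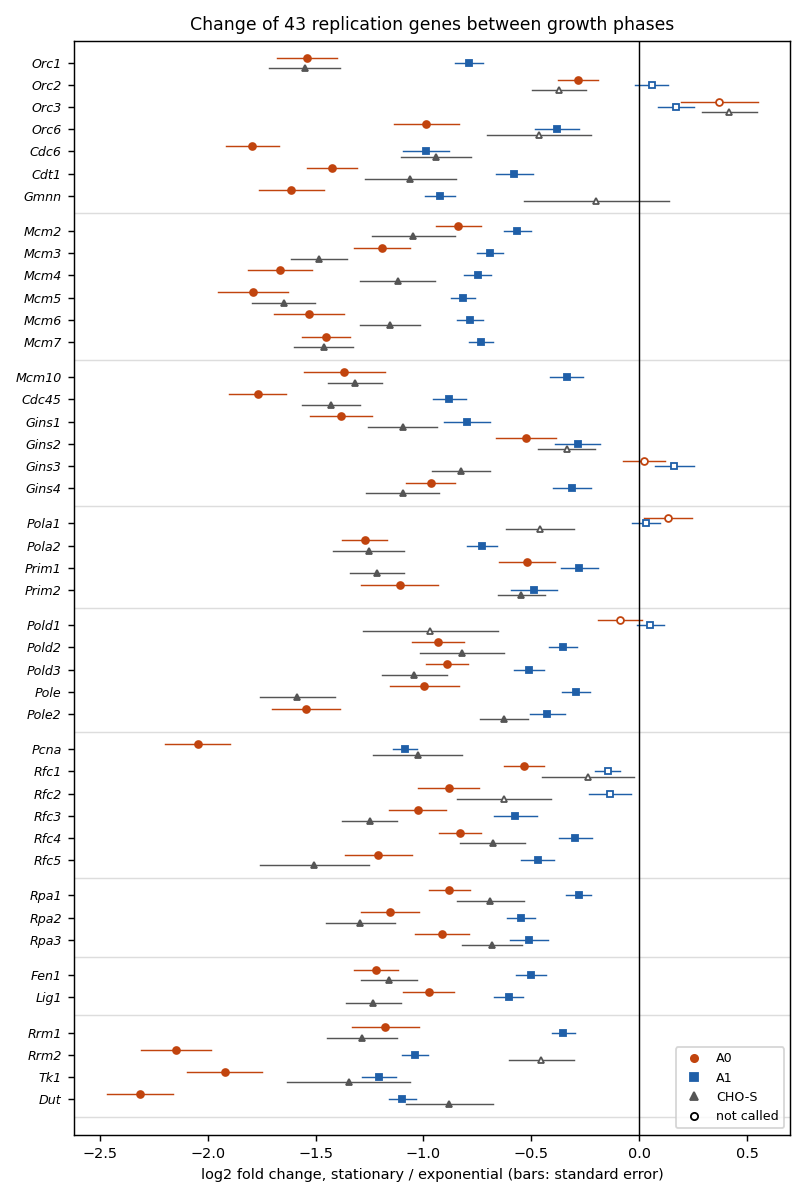
Log2 fold change of stationary against exponential cultures for each of the 43 genes, in role order from origin recognition (top) to nucleotide supply (bottom), in A0 (circles), A1 (squares) and CHO-S (triangles), with bars of 1 standard error and open symbols for genes not called. Nearly all points lie left of 0, and the A1 change lies to the right of the A0 change for 41 of the 43 genes.

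The genes of nucleotide supply had the deepest falls in A0, with a median log2 fold change of -2.03 over the 4, against -1.07 in A1 and -1.08 in CHO-S (-1.12 without culture 1). Dut, the dUTPase that keeps uracil out of DNA, was at 157, 155, 129 and 110.2 CPM in the exponential and 21.6, 23.5, 34.2 and 32 CPM in the stationary A0 cultures. In A1, Dut was at 132, 135 and 132 CPM in exponential and 58.02, 64.2 and 60.8 CPM in stationary A1 cultures. In CHO-S, its values were 131, 121 and 124 CPM at exponential and 90.8, 55.3 and 63.001 CPM at stationary phase. The phases did not overlap in any line, and the lowest level of all was in stationary A0. Its log2 fold change was -2.31 (SE 0.15, adjusted p = 1.9e-08) in A0, -1.10 (SE 0.063, adjusted p = 1.9e-14) in A1 and -0.88 (SE 0.20, adjusted p = 0.03) in CHO-S, where it was -1.10 without culture 1. Rrm2, the small subunit of ribonucleotide reductase that limits the enzyme in S phase, was at 518, 511, 438 and 327 CPM in the exponential and 89.1, 78.9, 113 and 127 CPM in the stationary A0 cultures. In A1, Rrm2 was at 301, 312 and 317 CPM in exponential and 142, 162 and 143 CPM in stationary A1 cultures. CHO-S cultures had 439.6, 373 and 389 CPM at exponential and 331, 297 and 248 CPM at stationary phase of Rrm2. A0 and A1 dropped well below their exponential range, while the CHO-S phases lay next to each other without overlapping. Rrm2 changed by -2.15 (SE 0.16, adjusted p = 6.8e-08) in A0 and -1.04 (SE 0.059, adjusted p = 1.7e-14) in A1, and by -0.45 (SE 0.15, adjusted p = 0.092) in CHO-S, which was not called with all cultures and was -0.54 and called without culture 1.

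Rrm1, the large subunit of the same enzyme, was not among the deepest falls, with log2 fold changes of -1.18 in A0, -0.35 in A1 and -1.28 in CHO-S, all called. Tk1, the cytosolic thymidine kinase of the salvage route, was at 69.3, 64.8, 55.4 and 65.7 CPM in the exponential and 12.3, 12.02, 21.8 and 21.4 CPM in the stationary A0 cultures. In A1, Tk1 was at 76.5, 67.6 and 78.4 CPM in exponential and 30.003, 32.9 and 31.96 CPM in stationary A1 cultures. CHO-S had 58.4, 61.8 and 62.04 CPM at exponential and 8.26, 26.8 and 28.3 CPM at stationary phase of Tk1. The stationary cultures were all below the exponential ones, and the lowest CHO-S value was that of the shallow culture 1. Tk1 had the largest fall in A1, -1.21 (SE 0.077, adjusted p = 1.7e-13), and changed by -1.92 (SE 0.17, adjusted p = 3.8e-07) in A0 and -1.35 (SE 0.28, adjusted p = 0.023) in CHO-S (-1.15 without culture 1).

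All 6 genes of the MCM ring, the core of the replicative helicase, fell in all 3 lines, with median log2 fold changes of -1.49 in A0, -0.74 in A1 and -1.31 in CHO-S (-1.33 without culture 1). Mcm7, the ring gene with the most reads, was at 626, 645, 591 and 525 CPM in the exponential and 208, 184, 232 and 254 CPM in the stationary A0 cultures. In A1, Mcm7 was at 438, 441 and 425 CPM in exponential and 246, 273 and 254 CPM in stationary A1 cultures. In CHO-S it was at 354, 345 and 341 CPM at exponential and 106, 133 and 135 CPM at stationary phase. Stationary A1 kept more Mcm7 than most stationary A0 cultures, and CHO-S had the lowest stationary levels. The change of Mcm7 was -1.45 (SE 0.11, adjusted p = 8.5e-08) in A0, -0.73 (SE 0.055, adjusted p = 5.1e-12) in A1 and -1.46 (SE 0.14, adjusted p = 0.0029) in CHO-S (-1.37 without culture 1).

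Mcm5 had the largest fall of all 43 genes in CHO-S. Its levels were 487, 511, 508 and 390.2 CPM in the exponential and 115, 96.6, 173 and 169 CPM in the stationary A0 cultures. A1 cultures had 382, 392 and 379.9 CPM in exponential and 205, 229 and 211 CPM in stationary A1 cultures of Mcm5. In CHO-S, Mcm5 was at 294, 307 and 321 CPM at exponential and 80.5, 107 and 104 CPM at stationary phase. No phase overlapped another within a line. The log2 fold change of Mcm5 was -1.65 (SE 0.15, adjusted p = 0.0029) in CHO-S, -1.54 without culture 1, -1.79 (SE 0.16, adjusted p = 4.4e-07) in A0 and -0.82 (SE 0.056, adjusted p = 7.8e-13) in A1. Among the other ring genes the fall was least for Mcm2, at -0.84 in A0, -0.57 in A1 and -1.05 in CHO-S.

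Of the 7 genes that choose and license origins, 6 fell in A0, 5 in A1 and 3 in CHO-S, where 6 fell and 1 rose without culture 1. Orc1, the largest subunit of the origin recognition complex, was at 84.9, 85.7, 74.4 and 77.7 CPM in the exponential and 24.4, 20.8, 30.8 and 35.7 CPM in the stationary A0 cultures. In A1, Orc1 was at 85.5, 86.9 and 86.1 CPM in exponential and 52.04, 48.2 and 48.1 CPM in stationary A1 cultures. CHO-S showed 58.1, 54.1 and 51.8 CPM at exponential and 12.4, 20.2 and 19.5 CPM at stationary phase. Orc1 was separated by phase in each line, and stationary A1 held more than any stationary A0 or CHO-S culture. It changed by -1.54 (SE 0.14, adjusted p = 3.9e-07) in A0, -0.79 (SE 0.066, adjusted p = 6.8e-11) in A1 and -1.55 (SE 0.16, adjusted p = 0.0031) in CHO-S (-1.45 without culture 1). The other origin recognition subunits moved less: Orc6 changed by -0.99 in A0 and -0.38 in A1, both called, and Orc2 by -0.29 in A0, called, and 0.057 in A1, not called.

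Orc3 was the only gene of the 43 with a positive change in all 3 lines, at 0.37 in A0 (adjusted p = 0.12 from edgeR), 0.17 in A1 (adjusted p = 0.12 from edgeR) and 0.42 in CHO-S (adjusted p = 0.072 from edgeR). Orc3 was at 42.95, 35.8, 22.02 and 26.7 CPM in the exponential and 52.7, 42.9, 35 and 35.8 CPM in the stationary A0 cultures, and the A0 phases overlapped. With the culture number as a block in A0, Orc3 rose by 0.40 (adjusted p = 0.00041 from edgeR). The A0 cultures deviated together in sets, described below, and pairing by number was not shown. That p-value therefore rests on an assumed pairing. Without CHO-S stationary culture 1, Orc3 rose by 0.36 in CHO-S.

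Cdc6, which loads the MCM ring with the origin recognition complex, was at 54.2, 55.6, 61.01 and 50.6 CPM in the exponential and 14.4, 13.4, 17.6 and 18.8 CPM in the stationary A0 cultures. In A1, Cdc6 was at 33.1, 34.8 and 39.3 CPM in exponential and 16.6, 21.1 and 15.2 CPM in stationary A1 cultures. In CHO-S, Cdc6 was at 45.4, 46.6 and 47.4 CPM at exponential and 31.99, 23.9 and 20.9 CPM at stationary phase. It was lower in every stationary culture than in any exponential culture of the same line. Cdc6 changed by -1.79 (SE 0.12, adjusted p = 2.2e-08) in A0, -0.99 (SE 0.11, adjusted p = 8.6e-09) in A1 and -0.94 (SE 0.16, adjusted p = 0.012) in CHO-S (-1.03 without culture 1). Cdt1, the partner of Cdc6 in loading, was at 50.6, 49.4, 51.7 and 47.04 CPM in the exponential and 16.6, 15.8, 20.7 and 21.5 CPM in the stationary A0 cultures. In A1, Cdt1 was at 55.5, 61.5 and 54.96 CPM in exponential and 36.7, 43.95 and 32.5 CPM in stationary A1 cultures. CHO-S cultures gave 37.2, 38.5 and 35.3 CPM at exponential and 8.26, 21.98 and 15.99 CPM at stationary phase for Cdt1. The stationary A0 cultures were the lowest of the producer lines. Cdt1 changed by -1.42 (SE 0.11, adjusted p = 1.3e-07) in A0, -0.58 (SE 0.086, adjusted p = 2.8e-06) in A1 and -1.06 (SE 0.21, adjusted p = 0.019) in CHO-S (-0.91 without culture 1).

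Gmnn encodes geminin, which binds Cdt1 and prevents licensing a second time in a cycle. Gmnn was at 231, 167, 181 and 132 CPM in the exponential and 55.5, 47.8, 63.3 and 67.97 CPM in the stationary A0 cultures. In A1, Gmnn was at 96.95, 98.2 and 107 CPM in exponential and 49.2, 55.4 and 52.2 CPM in stationary A1 cultures. CHO-S had 69.2, 61.1 and 69.8 CPM at exponential and 101, 43.4 and 41.6 CPM at stationary phase of Gmnn. Exponential A0 held the highest levels, and in CHO-S the shallow stationary culture 1 was above every exponential culture while the other 2 were below. Gmnn changed by -1.61 (SE 0.15, adjusted p = 6e-07) in A0 and -0.92 (SE 0.068, adjusted p = 4.3e-12) in A1, and its change in CHO-S, -0.20 (SE 0.33, adjusted p = 0.75), was not called, whereas it fell by 0.64 without culture 1. Exponential A0 culture 1 was the highest, and its 2 libraries differed, with 163 CPM in the first and 280 CPM in the second before TMM scaling. With first libraries alone, the change in A0 was -1.42.

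Of the 6 genes that turn the loaded ring into a moving helicase, 5 fell in each line, or 6 in CHO-S without culture 1. Mcm10, which is needed to start unwinding, was at 74.7, 79.1, 97.8 and 79.7 CPM in the exponential and 23.4, 21.3, 41.8 and 42.7 CPM in the stationary A0 cultures. In A1, Mcm10 was at 61.4, 63.3 and 59.2 CPM in exponential and 44.6, 54.2 and 44.1 CPM in stationary A1 cultures. In CHO-S it was at 57.9, 60.3 and 62.7 CPM at exponential and 23.7, 24.04 and 24.5 CPM at stationary phase. The phases were separate in each line, and the step down was the smallest in A1. Mcm10 changed by -1.37 (SE 0.19, adjusted p = 2.7e-05) in A0, -0.34 (SE 0.077, adjusted p = 0.00076) in A1 and -1.32 (SE 0.13, adjusted p = 0.0029) in CHO-S (-1.31 without culture 1). Cdc45, a fixed part of the active helicase, changed by -1.77 in A0, -0.88 in A1 and -1.43 in CHO-S, each called.

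The GINS subunits, which join Cdc45 and the ring, did not move alike. Gins1 was at 22.02, 19.2, 17.4 and 15.7 CPM in the exponential and 6.61, 6.22, 7.56 and 8.24 CPM in the stationary A0 cultures. In A1, Gins1 was at 22.7, 23.9 and 24.5 CPM in exponential and 12.8, 15.3 and 12.1 CPM in stationary A1 cultures. CHO-S had 18.1, 15.5 and 15.6 CPM at exponential and 12.4, 7.77 and 6.77 CPM at stationary phase of Gins1. Gins1 was higher in every exponential A1 culture than in any other culture of the series. Its log2 fold change was -1.38 (SE 0.14, adjusted p = 1.7e-06) in A0, -0.80 (SE 0.11, adjusted p = 5.8e-07) in A1 and -1.10 (SE 0.16, adjusted p = 0.007) in CHO-S (-1.15 without culture 1). Gins3 was at 38.6, 37.2, 37.7 and 44.6 CPM in the exponential and 40.3, 38.4, 42.4 and 40.8 CPM in the stationary A0 cultures. The change of Gins3 was 0.023 in A0 (adjusted p = 0.88 from edgeR) and 0.16 in A1 (adjusted p = 0.18 from edgeR), with neither called, but -0.82 (SE 0.13, adjusted p = 0.0099) in CHO-S, -0.76 without culture 1. Gins2 fell by less than Gins1 and Gins4 in A0, with changes of -0.53, -1.38 and -0.97.

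Of the 4 genes of polymerase alpha-primase, which makes the RNA-DNA primer, 3 fell in each line, or 4 in CHO-S without culture 1. Pola1, the catalytic subunit of polymerase alpha, was at 93.99, 100.4, 80.3 and 96.9 CPM in the exponential and 92.5, 87.5, 119 and 112 CPM in the stationary A0 cultures. In A1, Pola1 was at 92.2, 96.4 and 91.6 CPM in exponential and 101, 89.5 and 93.5 CPM in stationary A1 cultures. CHO-S had 167, 153 and 157 CPM at exponential and 137, 100.03 and 112 CPM at stationary phase of Pola1. The phases overlapped in A0 and in A1. Pola1 changed by 0.13 (SE 0.11, adjusted p = 0.38) in A0, 0.032 (SE 0.064, adjusted p = 0.76) in A1 and -0.46 (SE 0.16, adjusted p = 0.1) in CHO-S, none of them called, although it fell by 0.60 in CHO-S without culture 1. Pola2, its regulatory subunit, fell in all 3 lines, by -1.27, -0.73 and -1.25 on the log2 scale in A0, A1 and CHO-S. The primase genes Prim1 and Prim2 fell in all 3 as well, Prim1 with -0.52 in A0 and -1.21 in CHO-S, and Prim2 with -1.11 in A0 and -0.55 in CHO-S.

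Polymerase epsilon extends the leading strand and polymerase delta the lagging strand. Pole, the catalytic subunit of polymerase epsilon, was at 80.1, 88.1, 93.1 and 87.8 CPM in the exponential and 32.8, 31.9, 54.9 and 56.4 CPM in the stationary A0 cultures. In A1, Pole was at 70.03, 71.3 and 69.6 CPM in exponential and 57.6, 58.2 and 54.3 CPM in stationary A1 cultures. In CHO-S, Pole was at 105, 114 and 113 CPM at exponential and 26.8, 37.9 and 42 CPM at stationary phase. CHO-S had the highest exponential and some of the lowest stationary levels. Pole changed by -1.58 (SE 0.17, adjusted p = 0.0032) in CHO-S (-1.48 without culture 1), -0.996 (SE 0.16, adjusted p = 0.00012) in A0 and -0.29 (SE 0.066, adjusted p = 0.00073) in A1. Pole2, the second subunit of polymerase epsilon, was at 69.3, 54.97, 49.98 and 43.6 CPM in the exponential and 17.8, 13.8, 22.5 and 21.1 CPM in the stationary A0 cultures. In A1, Pole2 was at 43.1, 42.2 and 43.2 CPM in exponential and 29.7, 34.1 and 30.2 CPM in stationary A1 cultures. CHO-S cultures had 29.3, 25.98 and 29.3 CPM at exponential and 18.6, 17.7 and 18.97 CPM at stationary phase of Pole2. A0 had the highest and CHO-S the lowest exponential levels of Pole2. Pole2 changed by -1.54 (SE 0.16, adjusted p = 1.5e-06) in A0, -0.43 (SE 0.081, adjusted p = 1e-04) in A1 and -0.63 (SE 0.11, adjusted p = 0.014) in CHO-S (-0.63 without culture 1).

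Pold2, an accessory subunit of polymerase delta, was at 110.4, 116, 123 and 89.3 CPM in the exponential and 49.1, 54.04, 60.9 and 67.1 CPM in the stationary A0 cultures. In A1, Pold2 was at 89.9, 90.1 and 89.95 CPM in exponential and 66.3, 72.9 and 68.7 CPM in stationary A1 cultures. CHO-S had 103, 107 and 103 CPM at exponential and 39.2, 64.4 and 68.01 CPM at stationary phase of Pold2. All stationary cultures were below the exponential ones of their line. Pold2 changed by -0.93 (SE 0.12, adjusted p = 1.3e-05) in A0, -0.35 (SE 0.064, adjusted p = 4.8e-05) in A1 and -0.82 (SE 0.20, adjusted p = 0.034) in CHO-S (-0.66 without culture 1). Pold1, the catalytic subunit of polymerase delta, was not called in any line, at -0.091 in A0 (adjusted p = 0.53 from edgeR), 0.051 in A1 (adjusted p = 0.59 from edgeR) and -0.97 in CHO-S (adjusted p = 0.084 from edgeR), but fell by 0.70 in CHO-S without culture 1. Pold1 was at 15.5, 49.2 and 46.9 CPM in the 3 stationary CHO-S cultures. The first of these values rests on the shallow library.

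Pcna forms the ring that tethers the polymerases to DNA, and the Rfc genes encode the complex that opens and loads it. Pcna was at 521, 427, 352 and 309 CPM in the exponential and 89.3, 85.5, 102 and 115 CPM in the stationary A0 cultures. In A1, Pcna was at 321, 314 and 309 CPM in exponential and 141, 155 and 142 CPM in stationary A1 cultures. In CHO-S it was at 297, 286 and 262 CPM at exponential and 185, 117 and 117 CPM at stationary phase. Exponential A0 spread most widely, and stationary A0 was the lowest group. Pcna changed by -2.05 (SE 0.15, adjusted p = 4.5e-08) in A0, -1.09 (SE 0.057, adjusted p = 2.3e-15) in A1 and -1.03 (SE 0.21, adjusted p = 0.02) in CHO-S (-1.27 without culture 1). The highest exponential A0 culture was again culture 1, with 399 CPM in its first and 602 CPM in its second library before TMM scaling, and with first libraries alone the change in A0 was -1.90.

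Rfc5, a small loader subunit, was at 74.9, 62.1, 46.8 and 49.4 CPM in the exponential and 25.03, 19.5, 29.5 and 27.5 CPM in the stationary A0 cultures. In A1, Rfc5 was at 55.6, 51.4 and 51.99 CPM in exponential and 34.8, 39.3 and 38.5 CPM in stationary A1 cultures. CHO-S had 71.9, 73.9 and 75.1 CPM at exponential and 12.4, 25.9 and 33.1 CPM at stationary phase of Rfc5. The phases were separate in each line. The fall of Rfc5 was among the largest in CHO-S, -1.51 (SE 0.25, adjusted p = 0.011) or -1.36 without culture 1, against -1.21 (SE 0.15, adjusted p = 1.2e-05) in A0 and -0.47 (SE 0.076, adjusted p = 1.1e-05) in A1. Rfc1, the large loader subunit, was at 274, 309, 306 and 281 CPM in the exponential and 196, 185, 213 and 221 CPM in the stationary A0 cultures. In A1, Rfc1 was at 184, 196 and 192 CPM in exponential and 184, 167 and 159.96 CPM in stationary A1 cultures. CHO-S had 256, 268 and 275 CPM at exponential and 304, 190.3 and 185 CPM at stationary phase of Rfc1. The phases were separate in A0 alone and overlapped in A1 and CHO-S. Rfc1 moved little beside Pcna, with -0.53 (SE 0.093, adjusted p = 0.00025) in A0, -0.15 (SE 0.060, adjusted p = 0.057) in A1 and -0.24 (SE 0.21, adjusted p = 0.5) in CHO-S (-0.50 without culture 1, called). Rfc2, Rfc3 and Rfc4 fell in A0, with log2 fold changes from -1.03 to -0.83.

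The single-strand binding complex and the enzymes that finish Okazaki fragments fell in all 3 lines without exception. Rpa2, the middle subunit of the single-strand binding complex, was at 212, 171, 142 and 159.7 CPM in the exponential and 68.02, 64.4, 87.4 and 89.8 CPM in the stationary A0 cultures. In A1, Rpa2 was at 183, 171 and 175 CPM in exponential and 110.1, 129.8 and 116 CPM in stationary A1 cultures. In CHO-S, Rpa2 was at 119.5, 125 and 122 CPM at exponential and 39.2, 57.7 and 49.2 CPM at stationary phase. Rpa2 did not overlap between phases in any line and changed by -1.16 (SE 0.14, adjusted p = 5.3e-06) in A0, -0.55 (SE 0.063, adjusted p = 3.5e-08) in A1 and -1.29 (SE 0.16, adjusted p = 0.0043) in CHO-S (-1.17 without culture 1). Rpa1 and Rpa3 changed by -0.88 and -0.91 in A0 and by -0.28 and -0.51 in A1. Lig1, the ligase that joins Okazaki fragments, was at 106, 113, 114 and 111 CPM in the exponential and 49.6, 46.2, 67.97 and 63.7 CPM in the stationary A0 cultures. In A1, Lig1 was at 100.1, 105 and 107 CPM in exponential and 70.1, 70.5 and 62.6 CPM in stationary A1 cultures. CHO-S had 214, 215 and 215 CPM at exponential and 81.5, 99.4 and 90.9 CPM at stationary phase of Lig1. CHO-S was the highest line at exponential phase. Lig1 changed by -0.98 (SE 0.12, adjusted p = 7.3e-06) in A0, -0.61 (SE 0.065, adjusted p = 9.9e-09) in A1 and -1.23 (SE 0.13, adjusted p = 0.0031) in CHO-S (-1.16 without culture 1), and Fen1, the flap endonuclease that acts before it, by -1.22, -0.50 and -1.16.

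**Figure D2:**
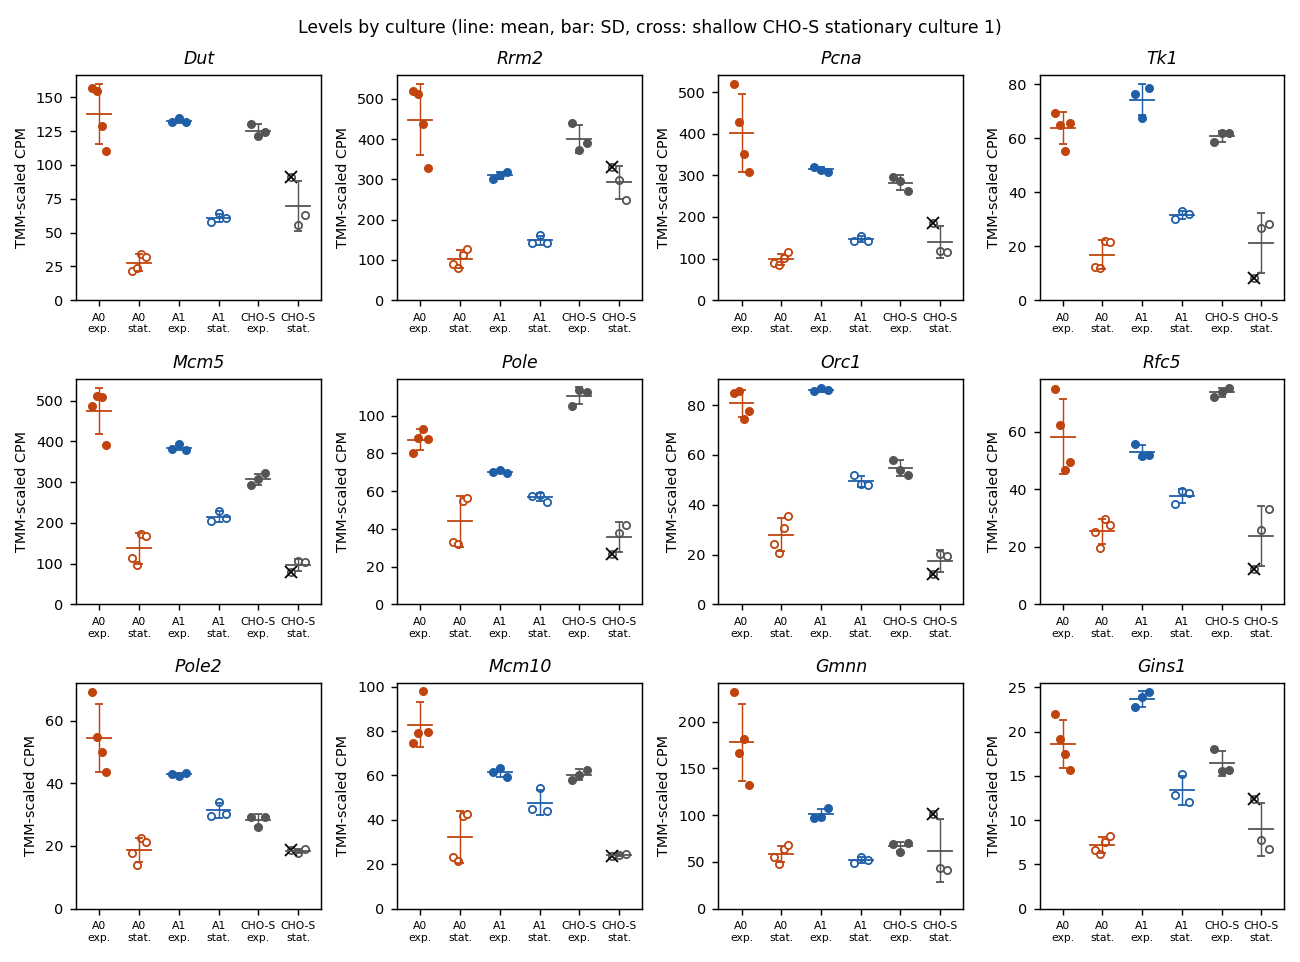
TMM-scaled CPM of 12 of the genes in each culture (points), with group means (lines) and SD (bars), for exponential (filled) and stationary (open) cultures of A0, A1 and CHO-S. The cross marks the shallow CHO-S stationary culture 1, which is above the other stationary CHO-S cultures for Gmnn and Dut and below them for Tk1 and Rfc5, and stationary A1 lies above stationary A0 for Dut, Tk1, Orc1 and Gins1.

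The next comparison asked whether the amplified line A1 changed with growth phase as its parent A0 did. The phase change differed between the lines for 25 of the 43 genes, all 25 toward a smaller fall in A1, whereas 8.94% of all genes differed, 5.04% in that direction and 3.9% in the other. For 0 genes was the fall larger in A1, also at an unadjusted p under 0.05 and with DESeq2. The median difference, the log2 change in A1 minus that in A0, was 0.58 over the 43 genes and 0.017 over all genes. Each of the 39 genes that fell in A0 had a smaller log2 fall, or none, in A1. Selecting genes by their fall in A0 favours such an outcome, and the share over all genes was not counted.

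The difference was 1.17 (SE 0.19, adjusted p = 0.00033) for Dut, 1.08 (SE 0.20, adjusted p = 0.0016) for Pole2, 1.07 (SE 0.20, adjusted p = 0.0013) for Rrm2 and 0.98 (SE 0.24, adjusted p = 0.011) for Mcm10. These 4 had the largest differences, and their values in each culture are given above. Stationary A1 kept 46.7% of exponential Dut where A0 kept 20.1%, and for Pole2 it was 74.4% against 34.3%. Pcna differed by 0.92, Mcm5 by 0.93 and Mcm4 by 0.88. By role, the called genes were 3 of 4 in nucleotide supply, 4 of 6 in the MCM ring, 4 of 6 in the clamp and loader group, 4 of 7 in licensing, 3 of 6 in helicase activation, 3 of 5 in polymerases delta and epsilon, 2 of 3 in single-strand binding, 1 of 2 in Okazaki fragment processing and 1 of 4 in polymerase alpha-primase.

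Over the 43 genes, the log2 changes of A0 and A1 had a Pearson r of 0.92 and a Spearman rho of 0.89, a description over genes that are not independent of each other. For A0 and CHO-S these were 0.45 and 0.40, and for A1 and CHO-S 0.42 and 0.38. The CHO-S values include the shallow library.

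The 4 stationary A0 cultures did not lie together. Cultures 1 and 2 were both below cultures 3 and 4 for 40 of the 43 genes, where 24.9% of all genes showed this, and the median log2 ratio of the sets was -0.37. At exponential phase the same split held for 6 genes and its opposite for 18, where 25.8% and 23.3% of all genes showed these, with a median of 0.10. Mki67, the proliferation marker, was at 329, 331, 583 and 659 CPM in the stationary A0 cultures and so was split the same way. Unlike most of the 43 genes, it was also split this way in the exponential A0 cultures, at 1018, 1226, 1682 and 1365 CPM. The second libraries of cultures 1 and 2 carry a different mark in their titles from those of cultures 3 and 4, and whether the sets were grown or handled apart is not given in the sources used here.

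Within cultures 1 and 2 alone, the median log2 change of the 43 genes from exponential to stationary A0 was -1.39 and 39 genes fell, where 22.1% of all genes fell. Within cultures 3 and 4 alone it was -0.80, 37 genes fell and 1, Orc3, rose, where 14.6% of all genes fell and 13.1% rose. Dut changed by -2.80 in the first set and by -1.85 in the second. Set against A1, the phase change differed for 38 genes when A0 was cultures 1 and 2 and for 18 when it was cultures 3 and 4, all toward a smaller fall in A1, with medians of 0.86 and 0.34. Over all genes, 22.7% and 9.06% were called in these fits, 12% and 5.09% in that direction. The difference for Dut was 1.66 and 0.73, and that for Rrm2 1.55 and 0.61. The part of this split in the size of the difference between A0 and A1 was not tested further.

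**Figure D3:**
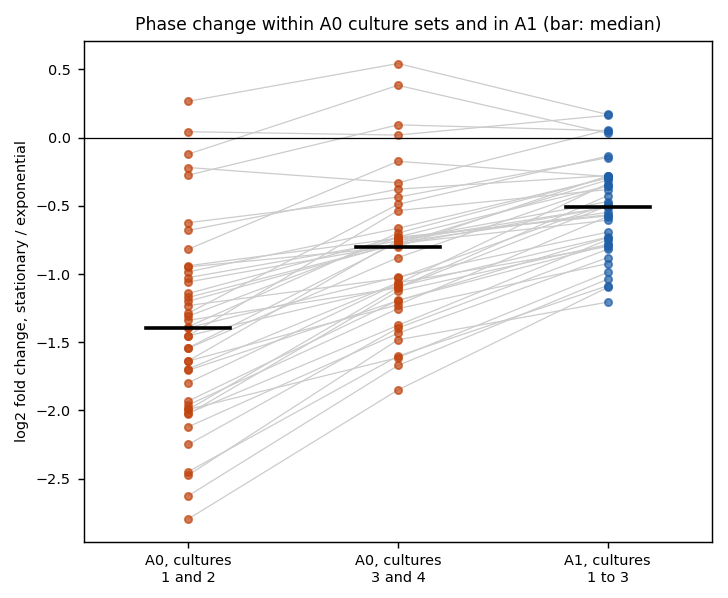
Log2 fold change of stationary against exponential phase for the 43 genes (points, joined by gene) in A0 cultures 1 and 2, in A0 cultures 3 and 4 and in the 3 A1 cultures, with the median as a black bar. The medians are -1.39, -0.80 and -0.51, so that both A0 sets lie below A1.

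**Figure D4:**
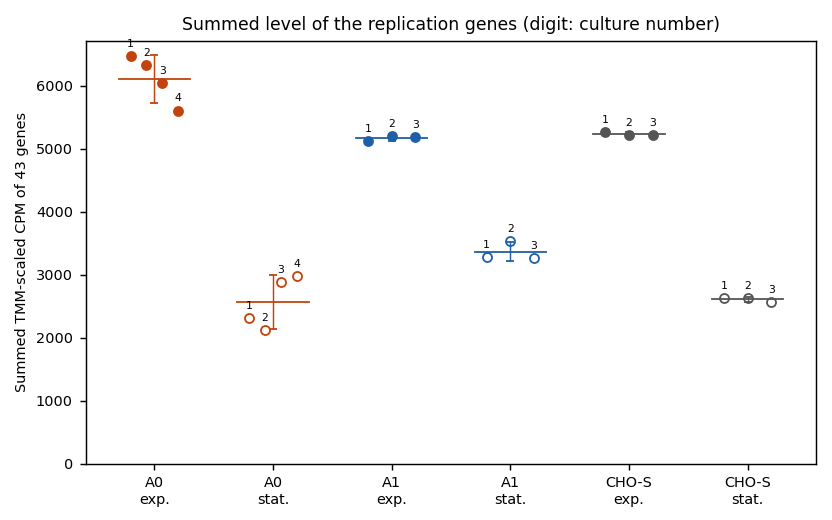
Summed TMM-scaled CPM of the 43 genes in each culture (points, with culture numbers), with the group mean and SD. Stationary A0 cultures lie between 2113 and 2977 and stationary A1 cultures between 3266 and 3534, while exponential cultures lie between 5119 and 6469.

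At exponential phase, A1 was compared with A0 to ask whether the lines differed while both were dividing. Of the 43 genes 16 were lower and 4 higher in A1, where 25.9% of all genes were called, 13.8% lower and 12% higher. The median log2 fold change was -0.23, beside -0.039 over all genes. The groups did not overlap for 25 genes, 19 of them lower in A1, where 34.4% of all genes did not overlap and 18.1% were lower without overlap. Gmnn, given by culture above, was lower by the largest margin, -0.82 (SE 0.14, adjusted p = 0.00072), and was -0.67 without A0 culture 1. Orc6 was at 46.9, 42.2, 37.1 and 30.9 CPM in the exponential and 17.03, 15.8, 23.2 and 23.8 CPM in the stationary A0 cultures. In A1, Orc6 was at 23.5, 23.05 and 20.7 CPM in exponential and 17.3, 16.6 and 17.1 CPM in stationary A1 cultures. Its exponential A1 cultures were all below the exponential A0 cultures, and the log2 fold change was -0.81 (SE 0.13, adjusted p = 0.00044).

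Cdc6 and Rfc1 followed, with -0.63 (SE 0.10, adjusted p = 0.00035) and -0.62 (SE 0.087, adjusted p = 0.00011). Among the licensing genes the loader Cdc6 and the Cdt1 inhibitor Gmnn were thus lower in A1, while Cdt1 itself was at 0.20 and not called (adjusted p = 0.11 from edgeR). In the helicase, Cdc45 (-0.57), Mcm7 (-0.46), Mcm4 (-0.45) and Mcm10 (-0.44) were lower. The 4 genes that were higher in A1 were Pold1 (0.51), Prim1 (0.49), Gins1 (0.35) and Rpa3 (0.31). The call of Gins1 was lost when any 1 A1 culture was left out, and so was that of Rpa3.

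At stationary phase the direction was the other way, with 23 genes higher and 2 lower in A1. Of all genes 33.7% were called, 16% higher and 17.7% lower. The median log2 fold change was 0.46, beside -0.0021 over all genes, and every A1 culture was above every A0 culture for 24 genes, where 20% of all genes showed this. Dut had the largest difference, 1.12 (SE 0.14, adjusted p = 2.5e-05), followed by Cdt1 with 1.004 (SE 0.13, adjusted p = 4.5e-05), Gins1 with 0.89 (SE 0.14, adjusted p = 0.00028) and Tk1 with 0.89 (SE 0.19, adjusted p = 0.0019). All 4 genes of nucleotide supply were higher in A1, and so were the 3 single-strand binding genes, 3 of the 4 polymerase alpha-primase genes and 4 of the 6 clamp and loader genes. In the MCM ring, Mcm3, Mcm4 and Mcm5 were higher and the other 3 were not called. With A0 cultures 3 and 4 alone 19 genes were higher and 5 lower, where 18.2% of all genes were higher and 19.1% lower. With cultures 1 and 2 alone 33 were higher and 3 lower, where 20.2% of all genes were higher and 21.6% lower.

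By gene, Mcm4, Mcm5 and Rrm2 were lower in A1 at exponential and higher at stationary phase. Mcm5 went from -0.30 to 0.63, Mcm4 from -0.45 to 0.42 and Rrm2 from -0.54 to 0.53. For these 3 the calls were not stable: with A0 cultures 3 and 4 alone, the exponential values were -0.23 for Mcm5 and -0.31 for Rrm2, and the stationary value of Mcm4 was 0.14, none of them called. Gins1, Pold1, Prim1 and Rpa3 were higher in A1 at both phases, Pold1 by 0.51 and 0.62 and Prim1 by 0.49 and 0.68. Gins3 and Rfc1 were lower at both, Gins3 by -0.45 and -0.34 and Rfc1 by -0.62 and -0.27. A further 16 genes were higher in A1 at stationary phase and not called at exponential phase. A call at 1 phase alone is not a difference between the phases. The shares of all genes with these joint patterns were not counted.

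**Figure D5:**
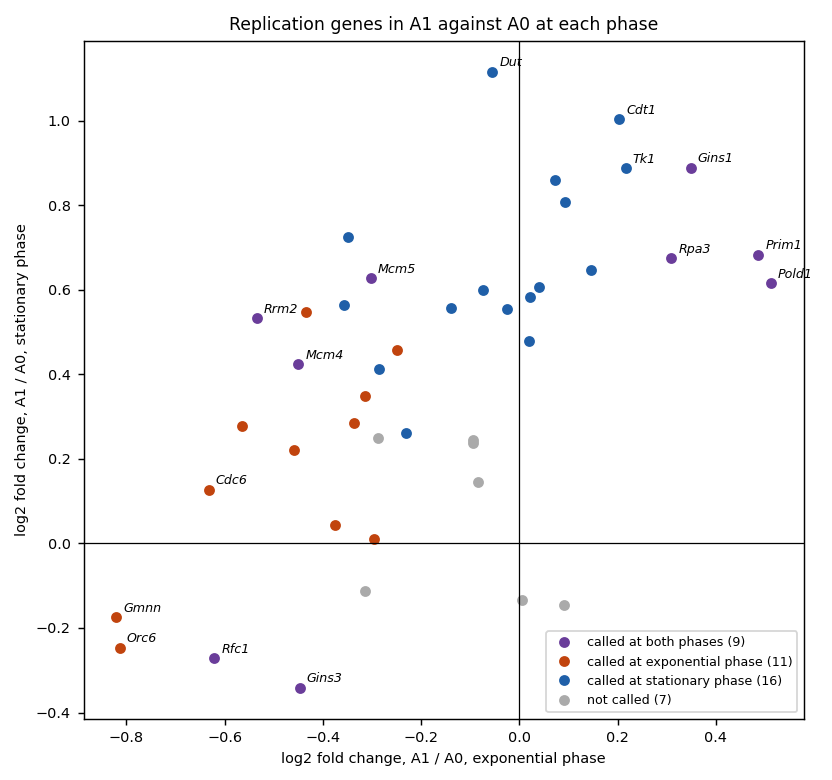
Log2 fold change of A1 against A0 at exponential phase (horizontal axis) and at stationary phase (vertical axis) for the 43 genes, coloured by the phase at which they were called. Of the 43 genes 23 were called higher in A1 at stationary phase, and Mcm4, Mcm5 and Rrm2 lie at upper left with calls of opposite sign.

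The comparisons with CHO-S share the same CHO-S cultures for A0 and A1, so their values stand side by side only. At exponential phase 23 genes were higher and 8 lower in A0 than in CHO-S, with 49.5% of all genes called, 27.6% higher and 21.9% lower. In A1 18 were higher and 14 lower, with 57.2% of all genes called, 30% higher and 27.1% lower. The median log2 difference was 0.26 in A0 and 0.092 in A1, beside 0.14 and 0.055 over all genes. Gmnn was 1.43 in A0 and 0.59 in A1, and Fen1 1.02 and 0.93. Lig1 was below CHO-S, at -0.94 in A0 and -1.05 in A1, and so was Pola1, at -0.76 and -0.77, and Pole, at -0.33 and -0.66, all called. Scaled by total counts without TMM, the split in A1 moved from 18 higher and 14 lower to 23 higher and 12 lower.

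At stationary phase 9 genes were higher and 5 lower in A0 than in CHO-S, with 40% of all genes called, 20.7% higher and 19.3% lower. Without CHO-S culture 1 the counts were 14 and 6, with 51.8% of all genes called, 28% higher and 23.8% lower. In A1 23 genes were higher and 2 lower, with 34.8% of all genes called, 18.2% higher and 16.6% lower. Without CHO-S culture 1 these were 29 and 6, with 57.4% of all genes called, 29.9% higher and 27.5% lower. The median log2 difference of the 43 genes was 0.084 in A0 and 0.56 in A1. Rrm2 was far below CHO-S in both, at -1.53 (SE 0.19, adjusted p = 0.00013) in A0 and -0.99 (SE 0.16, adjusted p = 0.0022) in A1, or -1.40 and -0.90 without culture 1. Dut was at -1.29 (SE 0.22, adjusted p = 0.00099) in A0 (-1.06 without culture 1) and at -0.17, not called, in A1. Fen1, Orc1 and Pola2 were above CHO-S in A1, at 1.56, 1.39 and 1.36. Gmnn in A1 was -0.17 with all cultures, not called, and 0.27, called, without culture 1.

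The phase change of A0 differed from that of CHO-S for 7 genes, where 10.3% of all genes differed, 6.57% toward a deeper fall or smaller rise in A0 and 3.78% the other way. Rrm2 (-1.70), Dut (-1.41), Gmnn (-1.36), Pcna (-1.01), Pole2 (-0.94) and Cdc6 (-0.85) fell further in A0, and Gins3 (0.83) fell in CHO-S but not in A0. Without CHO-S culture 1 there were 11, 7 of them toward a deeper fall in A0. Of all genes 17.2% were called in that fit, 8.75% downward and 8.43% upward in A0. The phase change of A1 differed for 18 genes, 17 toward a smaller fall in A1 and 1, Rrm2 (-0.59), toward a deeper one, where 7.6% of all genes differed, 3.83% upward and 3.77% downward in A1. Without CHO-S culture 1 these were 28 and 2, with 25.4% of all genes called, 13% upward and 12.4% downward in A1. Pole had the largest difference in A1, 1.25 (SE 0.16, adjusted p = 0.00039), or 1.16 without culture 1.

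Further genes of the pathway were taken from lists set by function. Of 35 other replication factors, 29 fell and 1 rose in A0, 26 fell and 1 rose in A1, and 20 fell and 1 rose in CHO-S, with medians of -0.94, -0.47 and -0.78. Without CHO-S stationary culture 1, 31 fell and 1 rose in CHO-S. Dna2, a nuclease and helicase of Okazaki fragments, changed most in A0 (-2.36), with Chaf1a of the histone chaperone that follows the fork (-1.71) and Dscc1 of an alternative clamp loader (-1.59) next. The 1 gene that rose in each line was Pold4, the smallest subunit of polymerase delta, at 0.74 (SE 0.11, adjusted p = 4.2e-05) in A0, 0.54 (SE 0.090, adjusted p = 1.7e-05) in A1 and 1.18 (SE 0.15, adjusted p = 0.0047) in CHO-S (1.29 without culture 1). Pold4 was singled out after its values were seen.

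Of 8 other nucleotide enzymes 5 fell in A0 and 1 rose, led by Dtymk (-1.49), Dctpp1 (-1.23) and Tyms (-1.20), which act in thymidylate synthesis and nucleotide clean-up. In A1 5 fell and 0 rose by edgeR, and in CHO-S 4 fell and 1 rose, or 5 and 3 without culture 1. Of 14 S-phase regulators 12 fell in A0, led by Ccne2, a cyclin of S-phase entry (-2.58), and the E2F factors E2f8 (-2.42) and E2f2 (-2.02), and 0 rose by edgeR. In A1 11 of these fell and 2 rose, and in CHO-S 10 fell and 1 rose, or 12 and 2 without culture 1. The difference in phase change between A1 and A0 was called, toward a smaller fall in A1, for 14 of the 35 replication factors, 2 of the 8 nucleotide enzymes and 9 of the 14 regulators, and for 0 in the other direction by edgeR.

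Of the proliferation markers Mki67, Ccnb1, Cdk1, Plk1 and Aurkb, 4 fell in A0, 4 in A1 and 2 in CHO-S, where all 5 fell without culture 1, and all but Cdk1 were higher in A1 than in A0 at stationary phase. At exponential phase A1 differed from A0 by -0.22 for Plk1 to 0.19 for Ccnb1, not called (adjusted p = 0.13 and 0.098 from edgeR), and the other 3 lay between. Mki67 changed by -1.49 (SE 0.21, adjusted p = 3.1e-05) in A0 and -0.43 (SE 0.055, adjusted p = 1.8e-07) in A1. Cdk1 was at 133 to 162 CPM in exponential and 128 to 161 CPM in stationary A0 and was not called in either producer line. Of the arrest genes Cdkn1a, Cdkn1b, Ccng2 and Btg1, Ccng2 and Btg1 rose in A0 and in A1, and Btg1 in CHO-S, where Cdkn1a and Ccng2 also rose without culture 1. Cdkn1b, an inhibitor of cyclin-dependent kinases, fell by 0.65 in A0 and was 0.18 in A1 and 0.23 in CHO-S, neither called. Cdkn1a, the p21 inhibitor of cyclin-dependent kinases, was 0.012 and not called in A0 and fell by 0.53 in A1. The part of the share of dividing cells in the changes of the 43 genes was not tested.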

How the data were processed

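The authors aligned the reads with STAR (2.5.4b) and counted them per gene with HTSeq (0.7.2), per the labels, and deposited raw counts without normalization. The strand setting of the counting is not given in the sources used here. The libraries were stranded mRNA libraries. The 5 summary lines of the counter were left out, and both libraries of an exponential A0 culture were summed. A gene entered a fit when its counts varied and 2 or more cultures had at least 1 count. The test was the two-sided quasi-likelihood test of edgeR (4.0.16, under R 4.3.3) after TMM scaling, with Benjamini-Hochberg adjustment at 0.05. Each fit held only the groups compared, or 4 groups for differences between lines in the phase change. DESeq2 (1.42.0) and other alternatives are covered in the closing section. Summaries were made in Python (3.11.15; pandas 2.3.3, scipy 1.17.1). The procedure was tested on simulated counts. Depth was 1038026 to 26584337 counts per culture, and the low count of 6 for 1 gene sets the precision there. Same-numbered A0 cultures correlated across phases at 0.19 to 0.44 in their deviations from the group means. Differently numbered A0 cultures ran from -0.41 to 0.33, the highest being stationary culture 4 with exponential culture 3. Cultures 1 and 2, and cultures 3 and 4, thus deviated together as sets, and pairing by number was not shown. Genes given by culture were those with the largest mean CPM in their role group and the 4 largest changes in each phase comparison, in A1 against A0 at each phase and in their difference, with Orc3, Gins3 and Pold1 added after their values were seen; in the other lists the 3 largest called changes in A0 were named. The members, lists and rules were chosen with earlier results of these data known. All 43 gene IDs matched RefSeq genes of CriGri-PICRH-1.0. The counts were made on another build, and positions are left out. Some marker and transgene values are not reported here.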

Additional observations from a re-analysis of the deposited data

Results flagged for a closer look

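Gene levels in the groups of 4 cultures, A0 at each phase, were tested for 1 culture far from the rest. Of these 86 tests 2 found such a culture, where chance gives about 4.3, and both were in exponential A0. Pold1 was at 60.3, 60.6, 54.6 and 60.4 CPM, and culture 3 lay apart by 0.952 of the range. Rpa3 was at 26.4, 26.97, 26.1 and 31.4 CPM, and culture 4 lay apart by 0.833 of the range.

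The phase change in A1 was above that in A0 for 25 genes, by the test of the difference itself. On the log2 scale the difference was 1.17 for Dut, 1.07 for Rrm2 and 0.79 for Rrm1 in nucleotide supply. In the MCM ring it was 0.93 for Mcm5, 0.88 for Mcm4, 0.71 for Mcm6 and 0.68 for Mcm7. In licensing it was 0.80 for Cdt1, 0.76 for Cdc6, 0.72 for Orc1 and 0.65 for Gmnn. In helicase activation it was 0.98 for Mcm10, 0.85 for Cdc45 and 0.62 for Gins4. Among the polymerases it was 1.08 for Pole2, 0.67 for Pole, 0.54 for Pold2 and 0.50 for Pola2. For the clamp and its loader it was 0.92 for Pcna, 0.70 for Rfc2, 0.70 for Rfc5 and 0.49 for Rfc4, and for the remaining genes 0.67 for Fen1, 0.57 for Rpa2 and 0.56 for Rpa1. Of the 25 calls 14 held under every setting run, and without stationary A1 culture 2 there were 14 calls.

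The phase change in A0 minus that in CHO-S was -1.70 for Rrm2, -1.41 for Dut, -1.36 for Gmnn, -1.01 for Pcna, -0.94 for Pole2, -0.85 for Cdc6 and 0.83 for Gins3. Without the shallow CHO-S stationary culture 1 it was -1.55 for Rrm2, -1.18 for Dut and -0.92 for Gmnn. The phase change in A1 minus that in CHO-S was 1.25 for Pole, 0.97 for Mcm10, 0.97 for Gins3, 0.96 for Rfc5, 0.94 for Pold1, 0.91 for Rrm1 and 0.91 for Prim1. For Mcm5 it was 0.81, for Mcm3 0.78, for Gins4 0.76, for Orc1 0.72, for Mcm7 0.71 and for Rpa2 0.71. It was 0.67 for Rfc3, 0.63 for Fen1, 0.61 for Lig1, 0.54 for Cdc45 and -0.59 for Rrm2, and without CHO-S culture 1 -0.51 for Rrm2.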

How the results depend on the processing

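No called gene turned direction under any setting. Leaving out 1 culture at a time, the count of calls ran from 38 to 40 in A0, 34 to 36 in A1 and 0 to 43 in CHO-S for the phase change. Over all genes, calls in these fits ran from 6639 to 7711 in A0, 5144 to 5576 in A1 and 0 to 8269 in CHO-S. From 16838 to 20888 genes were tested in the leave-one-out fits. For A1 against A0, the count of the 43 genes ran from 12 to 22 at exponential phase and from 18 to 32 at stationary phase. Each A1 culture left out gave 12 or 13 at exponential phase. Calls over all genes moved too, from 3160 to 6015 at exponential and from 4863 to 6460 at stationary phase. Without an A1 culture there were 3160 to 3422 at exponential phase. Against CHO-S at exponential phase, the count of the 43 genes ran from 26 to 34 for A0 and 30 to 33 for A1. Calls over all genes ran from 8322 to 10261 and from 9754 to 10304. At stationary phase the count ran from 9 to 20 for A0 (9 without CHO-S culture 2). For A1 it ran from 14 to 35 (14 or 15 without an A1 culture, 16 without CHO-S culture 3). Calls over all genes ran there from 5475 to 9831 for A0 and from 4051 to 10451 for A1. The differences in phase change gave 14 to 30 calls for A1 and A0, 6 to 11 for A0 and CHO-S, and 11 to 30 for A1 and CHO-S (11 without CHO-S exponential culture 3). Over all genes these fits gave 1003 to 2653, 1375 to 3586 and 782 to 4990 calls. In CHO-S, 14 calls were left without exponential culture 1 or 3, 16 without stationary culture 2, 17 without stationary culture 3 and 43 without the shallow culture 1. Of all genes, 310 and 282 were called without exponential culture 1 and 3. Without stationary culture 2, 3 and 1, these were 337, 574 and 8269. Fewer samples were in these fits, and further causes were not tested.

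With all 6 groups in 1 fit, there were 23 calls for the A1 phase change, 22 for A0 against CHO-S at stationary phase and 19 for A1 against CHO-S at exponential phase. The shares of all genes called in that fit were 11.6%, 44.6% and 35.3%. The replicate block called 40 genes in the A0 phase comparison, where 42.7% of all genes were called, and changed no other call there beside Orc3. Pairing by number was not shown in A0, nor was it seen in the other comparisons. There the replicate block left 17 calls for the CHO-S phase change and 8 for A0 against CHO-S at stationary phase. It left 7 for the difference between A1 and CHO-S. The shares of all genes called with the block were 2.02%, 26.5% and 2.63%. With A0 cultures 1 and 2 alone, 38 differences were called between A1 and A0 and 11 between A0 and CHO-S. With cultures 3 and 4 alone 4 were called between A0 and CHO-S. Of all genes 22.7%, 9.97% and 5.5% were called in these fits. The cause of these moves was not tested. Values near 0 that changed sign, none of them called, were those of Pola1 in A0 with cultures 1 and 2 alone (-0.12) and Pold1 in A0 with first libraries (0.0094) or cultures 3 and 4 alone (0.094). With 1 culture left out, Gins3 in A0 reached -0.0042 and -0.0016, Orc2 in A1 -0.0048, Pola1 in A1 ran from -0.010 to 0.076 and Gmnn in CHO-S from -0.64 to 0.044 (0.030 without stationary culture 2). Scaling by total counts moved the median of all genes from 0.062 to 0.22 for A1 against CHO-S and from 0.080 to 0.19 for A0 against CHO-S at stationary phase. It also moved the calls over all genes in the A1 phase comparison from 2895 higher and 3301 lower to 3554 and 2612. Depth was lowest in CHO-S stationary culture 1, and its part in the CHO-S values was not tested.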

Other observations

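The ratio of Gmnn to Cdt1, the licensing inhibitor to its target, was compared across cultures after the values had been seen, and is not corrected for gene length. It was 4.57, 3.38, 3.51 and 2.81 in exponential A0 cultures, 1.60 to 1.96 in exponential A1 and 1.59 to 1.98 in exponential CHO-S. At stationary phase it was 3.03 to 3.35 in A0, 1.26 to 1.60 in A1 and 1.97, 2.60 and 12.25 in CHO-S, the last being the shallow culture 1. The difference between A1 and A0 had a two-sided exact permutation p of 0.0571 at each phase, the smallest that 4 cultures against 3 allow, and an adjusted p of 0.171 over 18 such tests.

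The ratio of Rrm2 to Rrm1, the subunits of ribonucleotide reductase, changed from exponential to stationary phase by -0.93 on the log2 scale in A0 (two-sided exact permutation p = 0.0286, adjusted p = 0.171). The change was -0.69 in A1 and 0.86 in CHO-S, each with an exact permutation p of 0.1 and an adjusted p of 0.18. An exact p of 0.1 is the smallest that 3 cultures against 3 allow. In CHO-S the ratio was 1.03 to 1.20 at exponential phase and 2.92, 1.78 and 1.54 at stationary phase. The first of these stationary values is that of the shallow culture 1.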
